A study of Mus musculus with 20 samples.

Results

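The regions described here are places where the LIM homeodomain transcription factor ISL1 was detected inside chromatin marked by H3K27me3, in ganglia of mouse embryos. Overlapping peaks of the 4 ISL1 lists were merged into 214116 regions, and regions with a peak in exactly 2 or 3 of the lists were kept (18866). Of these, 16468 had no peak of POU4F1 replicate 1, a library of the POU homeodomain factor POU4F1. The 1011 regions that also overlapped a peak of both H3K27me3 replicate 2 and H3K27me3 replicate 3 are the subject of this account, 6.14% of the 16468. They are set against 14859 comparison regions, which met the same ISL1 and POU4F1 criteria and overlapped neither H3K27me3 list. A further 598 regions overlapped only 1 of the H3K27me3 lists and belong to neither set.

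For every library, tissue was taken from C57BL/6J mice at the embryonic stage E11.5, and its label, CVG, usually stands for the cochleovestibular ganglion, which holds the precursors of auditory and vestibular neurons. No genotype or treatment is given for any library, and by the labels the groups differ only in the antibody. CUT&Tag was used, a method in which an antibody tethers a transposase that cuts out the DNA next to the bound protein or histone mark. Peak lists of 14 libraries were used: ISL1_26 (n = 1), ISL1_70 (n = 3), POU4F1 (n = 2), H3K4me3 (n = 2), H3K27me3 (n = 3) and H3K27ac (n = 3), and the 6 IgG control libraries were not analysed here. The labels give the antibody of both ISL1 groups as ISL1, do not explain 26 and 70, and do not say whether replicates came from separate embryos, so the spread between libraries may be technical.

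H3K27me3 is the histone mark laid down by Polycomb repressive complex 2, and it covers the promoters of many developmental regulators in cells where those genes are silent. Homeobox genes, T-box genes and the genes of secreted signals are among its best known targets. ISL1 is a transcription factor of motor and sensory neurons whose homeodomain binds sequences with a TAAT core. H3K4me3 marks promoters and H3K27ac marks active promoters and enhancers, and promoters that carry both H3K4me3 and H3K27me3 are known as bivalent.

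The ganglia are a mixture of cells, so peaks of 2 marks on a region may come from the same cells or from different ones, and these cannot be told apart. Of 12 marker genes of the neurons, 9 had a peak of at least 2 of the 3 H3K27ac libraries at a gene end; Ntrk2, Gata3 and Ntrk3 did not. The same was true of 3 of 6 Schwann cell and neural crest markers, 3 of 5 otic epithelium markers, 1 of 6 mesenchyme markers, 1 of 3 endothelium markers and neither of the 2 blood markers. H3K27me3 of both replicates lay at an end of 7 of the 12 neuron markers, 5 of 6 Schwann cell and neural crest, 3 of 5 otic epithelium, all 6 mesenchyme, 1 of 3 endothelium and 1 of 2 blood markers. Lists ranged from 8855 to 168144 peaks, and the sequencing depth behind them is unknown. The library labelled H3K4me3 replicate 1 went against its label: its longest peak was 87.9 kb, close to the 87.7 and 88.3 kb of H3K27me3 replicates 2 and 3, while in H3K4me3 replicate 2 no peak was above 7.53 kb. It is reported under its label but not read as a promoter mark. H3K27me3 replicate 1 also stood apart, with a median fold enrichment of 1.99 and no peak above 4.44 kb.

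Promoters of 5 genes show what the DNA under these regions looks like. They come from the RefSeq promoter table of build GRCm38.p6 and run from 250 bases before to 50 bases after a transcription start, 5′ to 3′ on the strand of the gene, and a region covered each of them over all 300 bases. Hoxd11 (chr2:74682073-74682372, plus strand) and the start of Garnl3 at chr2:33130570-33130869 (minus strand) hold the homeodomain core. The Garnl3 promoter lies under the ISL1 region but outside the longest H3K27me3 peaks that this region overlapped. Those peaks lay at chr2:33131176-33131624 in replicate 2 and chr2:33131385-33133358 in replicate 3. Hmx2 (chr7:131554043-131554342, plus strand), Tbx1 (chr16:18590622-18590921, minus strand) and the start of Bcor at chrX:12160297-12160596 (minus strand) hold none. Capitals mark TAAT on either strand, which reads ATTA when it lies on the opposite strand.
Hoxd11: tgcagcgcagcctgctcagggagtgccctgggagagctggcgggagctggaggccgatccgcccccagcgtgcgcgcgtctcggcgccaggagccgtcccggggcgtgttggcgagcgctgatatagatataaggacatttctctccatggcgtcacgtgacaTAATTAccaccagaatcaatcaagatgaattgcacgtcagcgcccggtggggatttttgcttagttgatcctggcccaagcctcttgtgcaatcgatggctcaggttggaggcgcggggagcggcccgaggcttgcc
Garnl3: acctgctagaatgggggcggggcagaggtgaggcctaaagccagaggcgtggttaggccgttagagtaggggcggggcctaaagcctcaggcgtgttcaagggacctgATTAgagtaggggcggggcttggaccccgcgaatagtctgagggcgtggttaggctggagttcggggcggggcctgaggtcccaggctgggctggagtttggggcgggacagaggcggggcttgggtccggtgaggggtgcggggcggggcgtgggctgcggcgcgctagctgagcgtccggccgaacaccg
Hmx2: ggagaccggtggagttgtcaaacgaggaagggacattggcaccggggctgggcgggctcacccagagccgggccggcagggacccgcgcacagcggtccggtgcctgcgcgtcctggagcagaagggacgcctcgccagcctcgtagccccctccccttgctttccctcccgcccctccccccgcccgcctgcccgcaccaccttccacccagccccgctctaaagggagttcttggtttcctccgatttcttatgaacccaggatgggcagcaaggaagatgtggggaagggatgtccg
Tbx1: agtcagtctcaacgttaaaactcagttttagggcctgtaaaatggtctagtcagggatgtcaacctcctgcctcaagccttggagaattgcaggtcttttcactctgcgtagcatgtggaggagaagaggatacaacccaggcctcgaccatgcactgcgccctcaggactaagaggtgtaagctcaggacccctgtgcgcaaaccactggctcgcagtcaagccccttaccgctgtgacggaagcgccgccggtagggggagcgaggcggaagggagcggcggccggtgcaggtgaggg
Bcor: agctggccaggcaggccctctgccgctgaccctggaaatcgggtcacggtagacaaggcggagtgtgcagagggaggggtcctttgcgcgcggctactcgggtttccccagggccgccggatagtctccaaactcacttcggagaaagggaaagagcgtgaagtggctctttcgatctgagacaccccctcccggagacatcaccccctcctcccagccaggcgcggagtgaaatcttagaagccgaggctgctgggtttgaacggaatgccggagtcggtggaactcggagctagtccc
The Hoxd11 promoter carries the palindromic site TAATTA, and Garnl3 a single core. The G and C content of the 5 runs from 58.3% in Tbx1 to 68.7% in Garnl3, with between 16 CG dinucleotides in Tbx1 and 25 in Hoxd11.

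In all, the regions overlapped 231 promoters of 210 genes, with a median GC content of 64.0% and a median of 20 CG dinucleotides in 300 bases. All 21006 promoters of the table had 56.7% and 13, but 1468 promoters with a comparison region had 62.7% and 23, and 2666 promoters with H3K27me3 of both replicates and no ISL1 region had 62.3% and 18. TAAT, searched on both strands, was present in 81 of the 231 (35.1%), below the 51.6% of all promoters and near the 37.7% of promoters with a comparison region and the 36.7% of those with H3K27me3 and no ISL1 region. TAATTA was found in 3.46% of the 231, against 4.53% of all promoters, 1.98% of those with a comparison region and 2.40% of those with H3K27me3 and no ISL1 region. CTAATG and TAATGG, which lie close to published ISL1 sites and contain TAAT, were found in 6.06% and 3.90% of them. In the same order of sets, CTAATG was in 6.41%, 4.90% and 4.20% of promoters and TAATGG in 6.38%, 4.56% and 3.83%. GCGCGC, a sequence typical of CpG islands, was present in 72 of the 231 (31.2%), against 18.1%, 27.6% and 24.1%. These are counts of letters in a fixed window and were not tested.

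The H3K27me3 peaks that chose the regions were long and strong for their lists. Since these peaks were part of the choice, their values describe the regions and are not tested. The median length of the H3K27me3 replicate 2 peak at a region was 3.18 kb (quartiles 1.49 and 6.12 kb), against 0.855 kb for all peaks of that list, and in replicate 3 it was 3.71 kb (quartiles 1.82 and 6.93 kb) against 0.574 kb. The authors' fold enrichment of those peaks had a median of 36.1 in replicate 2 and 28.8 in replicate 3, where all peaks of the lists had medians of 8.80 and 6.71. Most regions lay within the domains rather than at their borders: 554 (54.8%) were covered over their whole width by both lists. Near the threshold, 21 regions were included with under 50 bp of either peak, the fewest being 2 bp. Of the 598 regions with a peak of 1 replicate, 490 had replicate 3 only and 108 had replicate 2 only. In 12 of them the missing replicate had a peak within 50 bp, the closest at 1 bp, while the median gap was 8219 bp.

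The regions themselves resembled the comparison regions in size and in the number of ISL1 lists. Their median width was 849 bp against 826 bp, and 842 were called in 2 lists and 169 (16.7%) in 3, against 17.5% of comparison regions in 3. Which lists called them differed. ISL1_26 replicate 1 called 729 of the 1011 regions (72.1%) and 79.8% of the comparison regions. ISL1_70 replicate 1 called 679 (67.2%) against 73.1%, and ISL1_70 replicate 3 called 360 (35.6%) against 40.4%. ISL1_70 replicate 2, the shortest ISL1 list with 24573 peaks, called 423 (41.8%) against 24.2%. It was the only ISL1 list with a higher share inside H3K27me3 than outside, by a factor of 1.73 where the other lists stood at 0.881 to 0.919. Taken over whole lists, 7.59% of the peaks of ISL1_70 replicate 2 overlapped both H3K27me3 lists, against 2.92% to 3.15% of the other ISL1 lists and 3.09% and 1.93% of the POU4F1 lists. The lists are part of the choice of regions, and no test was made of these shares. Each region has 2 or 3 lists and the sets were alike in that number, so the shares are coupled. A higher share of 1 list lowers those of the others, and the ratios below 1 are not separate observations.

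**Figure D1:**
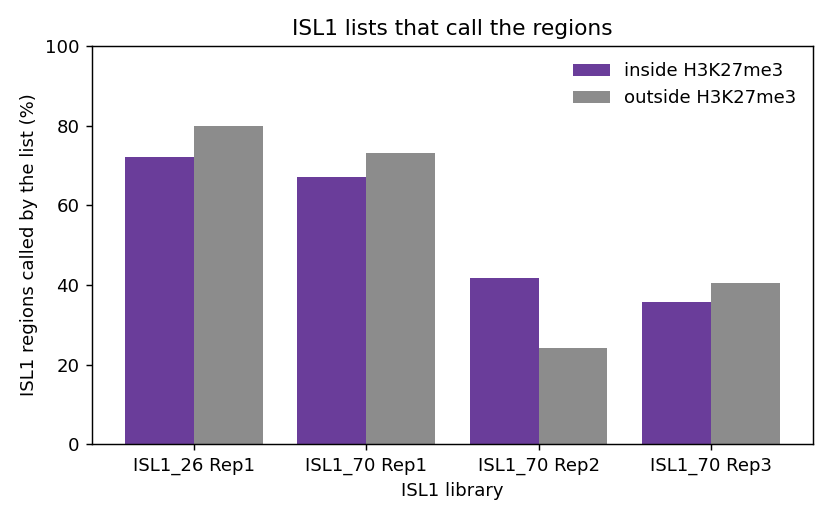
Share of regions (y axis, percent) called by each of the 4 ISL1 lists (x axis), for the 1011 regions inside H3K27me3 (purple) and the 14859 comparison regions outside it (grey). The bars of ISL1_70 replicate 2 stand at 41.8% and 24.2%, while in the other lists the grey bar is the higher one.

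Within their own lists, the ISL1 peaks at these regions were of middling rank. Ordered by the authors' q-value, with the strongest peak at 0% and the weakest at 100%, their median rank was 31.5% in ISL1_26 replicate 1, 33.1% in ISL1_70 replicate 1, 43.1% in replicate 2 and 52.9% in replicate 3. The comparison regions had medians of 29.6%, 33.1%, 43.1% and 47.3% in the same lists.

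H3K27me3 replicate 1, a library that the choice of regions did not use, was found more often at the regions than at comparison regions. It is a library of the same mark that chose the regions and that comparison regions lack, so the direction follows from the choice. Its values describe how far the libraries of this mark overlap and are not separate support. It had a peak at 367 of the 1011 regions (36.3%, 95% Wilson interval 33.4% to 39.3%) and at 989 of the 14859 comparison regions (6.66%), against a background of 8.66% over all 16468. The odds ratio was 7.99 (95% interval 6.92 to 9.23; Fisher's exact test, two-sided, adjusted p = 6.93e-147 over 7 libraries). The library labelled H3K4me3 replicate 1 had a peak at 969 of them (95.8%) and at 71 comparison regions (0.478%), against a background of 7.47%. In number, length and enrichment its peaks were close to those of H3K27me3 replicate 2, which chose the regions (15785 and 14140 peaks, medians of 877 and 855 bp and of 8.68-fold and 8.80-fold), so this share is given as a description. Regions of 1 list or domain are not independent replicates of a condition, so these p-values describe the lists and not the spread between embryos.

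Marks of active chromatin were split. H3K4me3 replicate 2, whose peaks had the length of promoter peaks, was present at 242 regions (23.9%) and at 10.8% of comparison regions (background 11.9%; odds ratio 2.60, Fisher's exact test, adjusted p = 1.60e-29). H3K27ac replicate 1 was present at 119 regions (11.8%) against 6.26% (background 6.79%; odds ratio 2.00, Fisher's exact test, adjusted p = 6.89e-10). That call was lost when at least 50% of a region had to be covered (odds ratio 1.11, exact test, adjusted p = 0.611), and the direction of both libraries depended on position. The longer H3K27ac lists went the other way. H3K27ac replicate 2 was present at 412 regions (40.8%) against 52.4% (background 51.6%; odds ratio 0.624, exact test, adjusted p = 1.22e-12). Replicate 3 was present at 437 regions (43.2%) against 51.5% (background 51.0%; odds ratio 0.716, exact test, adjusted p = 3.71e-07), a difference that missed the threshold without ISL1_70 replicate 2 (odds ratio 0.874, exact test, adjusted p = 0.0838). POU4F1 replicate 2, the POU4F1 library not used by the rule, had a peak at 58 regions (5.74%) against 2.90% (background 3.15%; odds ratio 2.04, exact test, adjusted p = 4.70e-06).

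Counted over the 3 H3K27ac libraries, 460 regions (45.5%) had no H3K27ac peak, 216 had a peak of 1 library, 253 of 2 and 82 of all 3. The 335 regions with at least 2 were 33.1%, against 41.6% of comparison regions and a background of 41.0%. At 420 regions (41.5%) there was neither a peak of H3K4me3 replicate 2 nor any of H3K27ac, against 36.4% of comparison regions. H3K4me3 replicate 2 with fewer than 2 H3K27ac libraries was found at 88 regions (8.70%) and at 1.35% of comparison regions. Within 1 kb of a gene end the shares were 10.5% (47 regions) and 4.91%, and farther away 7.27% (41 regions) and 0.846%. The ISL1 list that called a region moved with H3K27ac. Among the 423 regions called by ISL1_70 replicate 2, 29.1% had H3K27ac replicate 2 and 33.3% had replicate 3, against 49.1% and 50.3% of the other 588. Among the 679 called by ISL1_70 replicate 1 it was the other way, with 48.5% and 49.5% against 25.0% and 30.4% of the other 332. The 2 contrasts are not separate, since regions without 1 list must be called by others. Of the 332, ISL1_26 replicate 1 and ISL1_70 replicate 2 called 158, ISL1_70 replicates 2 and 3 called 52, and all of these lists called 24. The remaining 98 were called by ISL1_26 replicate 1 and ISL1_70 replicate 3. Comparison regions were not split in this way. The odds ratio of H3K27ac replicate 2 was 0.789 without ISL1_70 replicate 2 and 0.372 without ISL1_70 replicate 1.

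The regions lay near gene ends much more often than the comparison regions did. They were chosen by H3K27me3, which the comparison regions lack, and the position of H3K27me3 peaks without ISL1 was not counted. Whether the excess goes beyond that of H3K27me3 chromatin in general was therefore not tested. A peak region was counted at a gene end when it lay at most 1 kb from the annotated start or end coordinate of a protein-coding gene, and 447 of the 1011 (44.2%, 95% Wilson interval 41.2% to 47.3%) met this, against 1853 of 14859 (12.5%) and a background of 14.9%. The odds ratio was 5.56 (95% interval 4.87 to 6.36; Fisher's exact test, p = 3.29e-125). Counted by transcription starts of the promoter table alone, it was 4.50, with 33.3% against 9.99%. The median distance to a gene end was 1521 bp inside H3K27me3 and 30203 bp outside. Of the regions farther than 1 kb, 312 (30.9% of all 1011) lay inside a gene and 252 (24.9%) between genes. Of the comparison regions, 45.8% and 41.8% did so. Only 38 (3.76%) lay more than 100 kb from any gene end, against 24.6% of comparison regions.

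What the active marks showed depended on that position. At gene ends, the regions inside H3K27me3 had H3K4me3 replicate 2 less often than comparison regions, at 145 of 447 (32.4%) against 60.8% (odds ratio 0.310, exact test, adjusted p = 6.26e-27). Farther away they had it more often, at 97 of 564 (17.2%) against 3.69% (odds ratio 5.42, exact test, adjusted p = 2.83e-33). H3K27ac replicate 1 showed the same reversal, with 17.2% against 38.2% at gene ends (odds ratio 0.337) and 7.45% against 1.71% farther away (odds ratio 4.61). For both libraries the odds ratio over all regions had the opposite direction to the odds ratio at gene ends. With gene-end position as a stratum the pooled odds ratios were 0.824 and 0.637 (Mantel-Haenszel chi-square test, adjusted p = 0.00800 and 6.13e-06). As they average opposite directions, these pooled values describe neither position. The sets farther away were not matched in distance. Of the 564 regions, 318 lay 1 to 10 kb from a gene end, against 2545 of 13006 comparison regions. Some of the 564 also covered a listed transcription start inside a gene. How much of the reversal goes with distance was not tested.

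H3K27ac replicates 2 and 3 were lower in both positions, and by more at gene ends. At gene ends H3K27ac replicate 2 was present at 48.3% of the regions against 82.9% (odds ratio 0.192) and replicate 3 at 46.3% against 79.7% (odds ratio 0.220). Farther away the shares were 34.8% against 48.1% (odds ratio 0.575) and 40.8% against 47.5% (odds ratio 0.760, exact test, adjusted p = 0.00178). A peak of at least 2 H3K27ac libraries was found at 174 of the 447 regions at gene ends (38.9%) and at 77.0% of the comparison regions there. H3K27me3 replicate 1 was higher in both positions, at 42.3% against 31.7% at gene ends (odds ratio 1.58) and 31.6% against 3.09% farther away (odds ratio 14.5). It was thus also frequent at gene ends that lacked H3K27me3 replicates 2 and 3. POU4F1 replicate 2 was higher only in the count farther away, 5.32% against 2.34% (odds ratio 2.35, exact test, adjusted p = 8.26e-05), while at gene ends it was present at 6.26% and 6.85% (odds ratio 0.908, 95% interval 0.595 to 1.39, adjusted p = 0.753). The Breslow-Day chi-square test of the difference between the positions gave adjusted p = 0.000975 for POU4F1 replicate 2 and 2.46e-14 for H3K27ac replicate 2. For H3K4me3 replicate 2, H3K27me3 replicate 1 and H3K27ac replicates 1 and 3 it was too small to be returned.

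**Figure D2:**
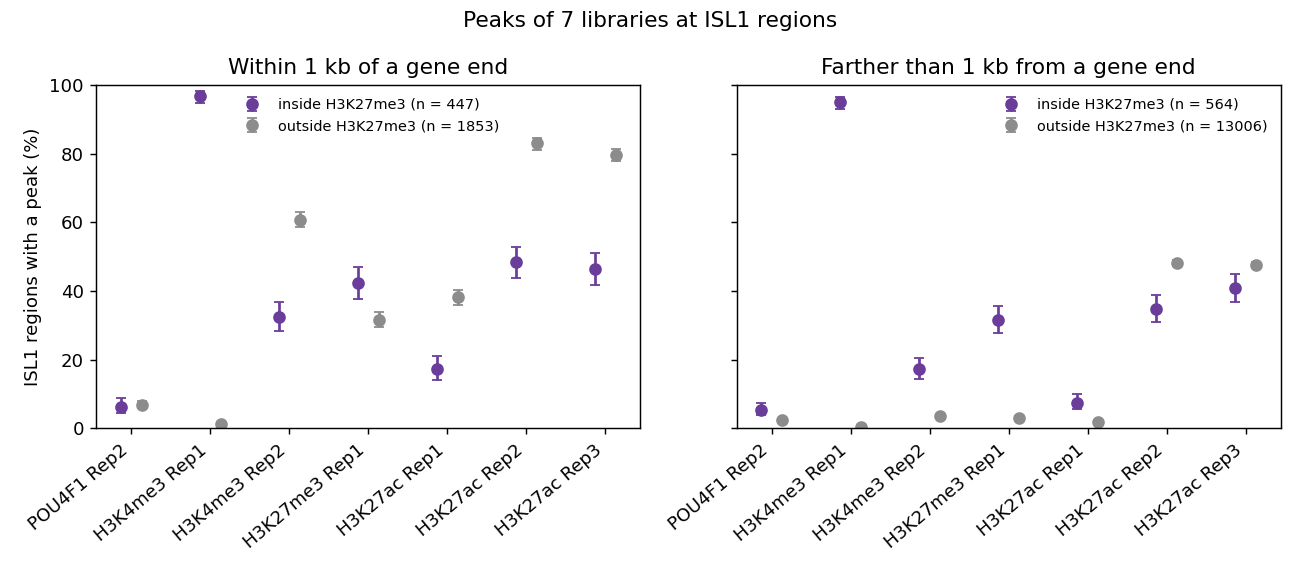
Share of ISL1 regions with a peak (y axis, percent) of each of 7 libraries (x axis), with 95% Wilson intervals, for regions within 1 kb of a gene end (left) and farther away (right), inside H3K27me3 (purple) and outside it (grey). H3K4me3 replicate 2 is the lower of the pair at gene ends, 32.4% against 60.8%, and the higher one farther away, 17.2% against 3.69%.

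The regions were spread thinly over many H3K27me3 domains. Merging the peaks of H3K27me3 replicates 2 and 3 gave 10317 domains with both replicates, of which 919 (8.91%) held a region, and 13 regions lay mainly in a domain of 1 replicate. In all, 872 domains held 1 region, 51 held 2 and 9 held 3 or more, with at most 7. Domains with a region had a median length of 4.08 kb, against 2.04 kb for domains of both replicates without any. The share of domains with a region rose with length, from 3.97% of 4806 domains up to 2 kb to 9.34% from 2 to 5 kb, 17.1% from 5 to 10 kb, 34.7% from 10 to 20 kb and 38.0% of the 71 domains above 20 kb. The number of regions per megabase of domain did not rise with it and ran from 24.6 in the longest class to 35.6 in the shortest, with 30.2 over all 33.1 Mb. These counts follow from the choice of the regions and were not tested.

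**Figure D3:**
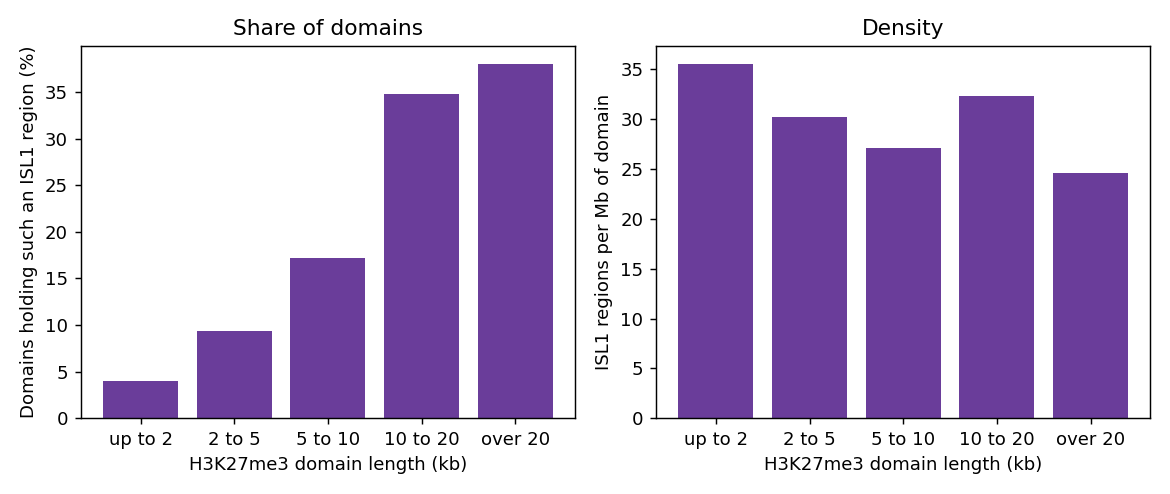
H3K27me3 domains with peaks of both replicates, grouped by length in kb (x axis): share that holds at least 1 of the ISL1 regions (left, percent) and number of such regions per megabase of domain (right). The share climbs from 3.97% to 38.0% while the density stays between 24.6 and 35.6 per megabase.

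The strongest regions by ISL1 rank are given with the nearest protein-coding gene, which lay up to 47.5 kb away. Named regions follow a fixed rule, and all have H3K27me3 peaks by choice. The leading region among those called in 3 lists lay 16.4 kb from C1ql1, a gene for a secreted protein of synapses (chr11:102963082-102964768). It ranked at 1.89% of ISL1_26 replicate 1, 5.02% of ISL1_70 replicate 1 and 2.20% of ISL1_70 replicate 3, and had H3K27ac of replicate 3 alone. The longest H3K27me3 peaks that it overlapped were of 8.05 and 4.57 kb. It was only partly covered, with 812 and 831 of its 1687 bp under peaks of H3K27me3 replicates 2 and 3. The next lay 1.08 kb from the homeobox gene Lbx2 (chr6:83083213-83085285), in a 10.8 kb H3K27me3 replicate 3 peak of 129-fold enrichment, with peaks of H3K4me3 replicate 2 and of H3K27ac replicates 2 and 3. A region inside 4931428F04Rik followed (chr8:105288920-105290746), with the same active marks.

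Nes, the gene of the progenitor filament protein nestin, held a region of 1156 bp (chr3:87972185-87973340) ranking at 6.71%, 10.6% and 3.81% of ISL1_26 replicate 1, ISL1_70 replicate 1 and ISL1_70 replicate 3. Its H3K27me3 peaks were short, at 2.17 and 1.30 kb, and it had H3K4me3 replicate 2 and H3K27ac replicates 2 and 3. Tlx1, a homeobox gene of spleen and neuron development, held a region that ranked at 0.290% of ISL1_70 replicate 3 (chr19:45154537-45155910), in a domain of 32.9 kb. Id3, whose product inhibits basic helix-loop-helix (bHLH) factors, had a region across its start (chr4:136143579-136144984) in H3K27me3 peaks of 3.48 and 3.95 kb. Both Tlx1 and Id3 had H3K4me3 replicate 2 and H3K27ac replicates 2 and 3. The other leading regions lay near Dap, Garnl3, Ecel1 and Micall2. The region near Dap, 47.5 kb away, and the region at Garnl3 also had a POU4F1 replicate 2 peak, whereas the region 7.15 kb from Ecel1, a neuronal metalloprotease gene, had no peak of H3K4me3 replicate 2, H3K27ac or POU4F1 replicate 2.

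Of the regions with all 3 H3K27ac libraries, the 5 with the best ISL1 ranks were at Frat1, Scn9a, Fbxl16, Tmem151b and Cdc42ep3, each called in ISL1_26 replicate 1 and ISL1_70 replicate 1 and each with H3K4me3 replicate 2. Frat1, an activator of Wnt signalling, held a region of 2102 bp that ranked at 0.451% and 1.80% of those lists (chr19:41830647-41832748), with H3K27me3 peaks of 2.55 and 2.10 kb and enrichments of 20.3 and 2.02. Scn9a encodes a voltage-gated sodium channel of sensory neurons. Its region lay 0.213 kb downstream of the transcription start (chr2:66634467-66635031), in H3K27me3 peaks of only 0.870 and 1.59 kb but with enrichments of 35.8 and 102.

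By gene, 747 of 21887 protein-coding genes (3.41%) had a region in the gene or within 1 kb of it, and 4143 genes had H3K27me3 of both replicates at an end, of which 664 (16.0%) did. The gene lists were chosen with earlier results of these data known, and since H3K27me3 marks most genes of some lists by itself, each list is read beside 16.0%. No list was tested. These shares were highest for inner ear neuron genes (9 of 21 genes with H3K27me3), Gata and Zic genes (4 of 10), homeobox genes outside the Hox clusters (43 of 111) and T-box genes (4 of 12). Hox genes stood near the share of all H3K27me3 genes, at 6 of 39, and Sox genes below it at 1 of 13. None of 20 housekeeping genes had H3K27me3 of both replicates at an end, and none had a region.

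**Figure D4:**
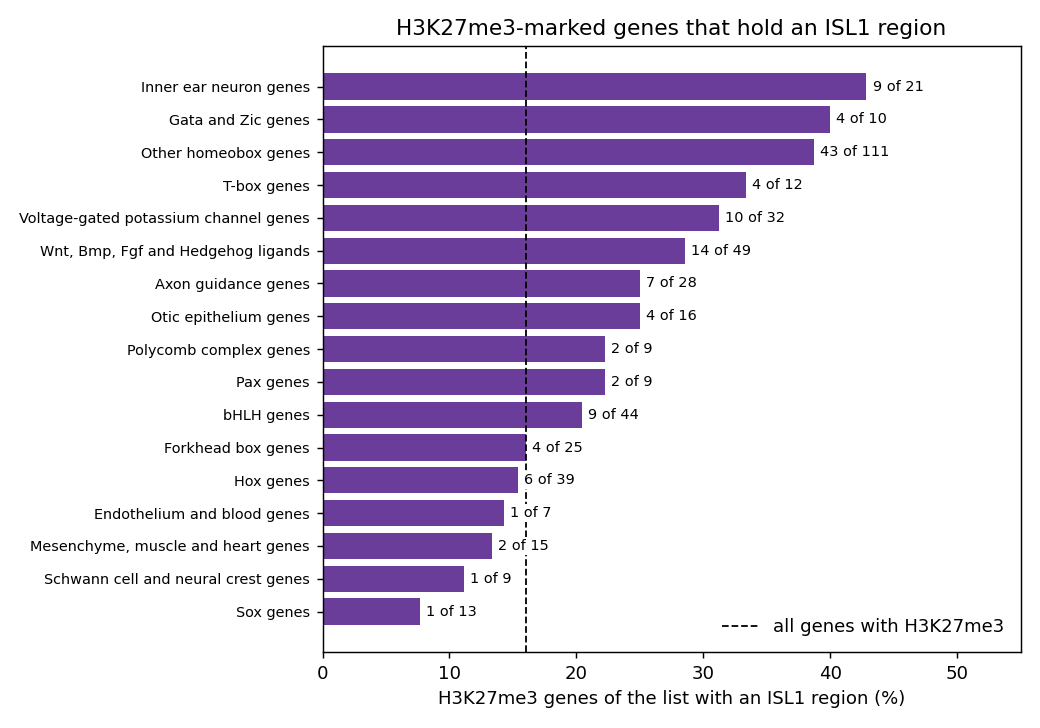
Share of the genes with H3K27me3 of both replicates at an end that held a region in the gene or within 1 kb of it (x axis, percent), for each gene list (y axis); labels give the counts. The dashed line is the 16.0% of all 4143 such genes; inner ear neuron genes stand at 9 of 21 and Hox genes at 6 of 39.

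Homeobox genes outside the Hox clusters made up the largest group, with 44 of 119 genes (37.0%) and 45.4 regions per megabase of their H3K27me3 domains, where domains of all protein-coding genes had 32.3. LIM homeodomain genes among them were Lhx1, Lhx2, Lhx4, Lhx8, Lhx9, Lmx1b and Isl2, the close relative of Isl1. The Isl2 region (chr9:55538572-55538965) ranked at 5.66% of ISL1_26 replicate 1 and 5.36% of ISL1_70 replicate 1. It overlapped H3K27me3 peaks of 1.59 and 1.29 kb and had H3K27ac of replicates 2 and 3 without H3K4me3 replicate 2. The Irx family was represented by Irx1, Irx2, Irx3, Irx4, Irx5 and Irx6. Irx3 had a region 0.493 kb downstream of its start (chr8:91800784-91801538), in H3K27me3 peaks of 12.3 and 14.4 kb, with peaks of H3K4me3 replicate 2, of H3K27ac replicates 2 and 3 and of POU4F1 replicate 2.

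The Hox clusters are long-known Polycomb targets, and all 39 Hox genes had H3K27me3 of both replicates at an end. The 29 domains at them were long, with a median of 10.6 kb and 0.472 Mb in all, and held 7 regions, or 14.8 per megabase, while by gene the share was near that of all H3K27me3 genes. The Hoxd11 region (chr2:74681116-74682566) covered the promoter printed above and ranked at 8.0% of ISL1_26 replicate 1 and 25.2% of ISL1_70 replicate 2, with H3K27ac of replicate 3. The neighbouring Hoxd10 region (chr2:74683691-74684738) ranked at 9.28% and 53.4% of the same lists and had H3K4me3 replicate 2 but no H3K27ac. Both lay in H3K27me3 peaks of 7.89 and 14.0 kb with enrichments of 114 and 280. A region in the Hoxb cluster at Hoxb3 and Hoxb5 (chr11:96305911-96306784) lay in peaks of 48.6 and 41.6 kb and had none of the active marks. Hoxa3 and Hoxc5 completed the list. Pax genes, at 2 of 9, had 3.66 regions per megabase of domain.

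Among inner ear neuron genes, 12 of 32 had a region (37.5%), and 9 of these genes had H3K27me3 of both replicates at an end. Comparison regions outside H3K27me3 were also common at the genes of this list, at 16 of 32 (50%) against 23.1% of all genes, as they were at axon guidance genes (55.1%) and voltage-gated potassium channel genes (45%). Inner ear neuron genes with a region inside H3K27me3 included Prox1, Neurog1, Gata3, Insm1, Casz1, Runx1, Runx3, Ebf2, Ebf3, Rbfox3 and Ntrk3. The domains at the genes of this list held 18 regions, or 72.3 per megabase, the highest density of the lists, over 0.249 Mb. Casz1, a zinc finger gene, held a region inside the gene (chr4:148892782-148893867) that ranked at 2.97% and 5.02% of ISL1_26 replicate 1 and ISL1_70 replicate 1. The Casz1 region lay 61.0 kb from the nearest gene end but 3.98 kb downstream of a listed Casz1 transcription start. Ntrk3, the receptor for the neurotrophin NT-3, held a region (chr7:78575376-78576385) in H3K27me3 peaks of 5.61 and 2.62 kb that also had H3K4me3 replicate 2 and H3K27ac replicates 2 and 3. Gata3, a zinc finger gene needed for inner ear and auditory neuron development, held a region called in 3 lists (chr2:9881503-9882512) in H3K27me3 peaks of 11.4 and 11.2 kb, with H3K27ac of replicates 2 and 3 and no H3K4me3 replicate 2. Runx1 held a region in peaks of 3.48 and 0.912 kb with none of the active marks.

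Genes of axon guidance and excitability followed. Of 28 axon guidance genes with H3K27me3, 7 had a region, and their domains held 54.2 regions per megabase. Epha5, an ephrin receptor, had a region over its start (chr5:84416110-84417504) that ranked at 1.65% of ISL1_26 replicate 1 and 34.6% of ISL1_70 replicate 1. Its longest H3K27me3 peaks were short and weak beside the medians over the regions, at 0.702 and 0.837 kb with enrichments of 11 and 2.12. They did not reach the Epha5 promoter. The Epha5 region had H3K4me3 replicate 2 and H3K27ac replicates 1 and 2. Nrp2, a semaphorin coreceptor, had peaks of H3K4me3 replicate 2 and of all 3 H3K27ac libraries, while the region at Unc5a, a netrin receptor, had H3K27ac of replicate 3 and POU4F1 replicate 2. Voltage-gated potassium channel genes had a region at 10 of 32 genes with H3K27me3. The Kcna1 region (chr6:126644695-126645981) ranked at 29.6% of ISL1_26 replicate 1 and 6.05% of ISL1_70 replicate 1 and had H3K4me3 replicate 2 and H3K27ac replicates 2 and 3, in H3K27me3 peaks of 6.75 and 5.23 kb; Kcna7 had neither mark.

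Ligand genes of the Wnt, Bmp, Fgf and Hedgehog families had a region at 14 of 49 genes with H3K27me3. By the rule, 4 of the 14 are named. Fgf4 (chr7:144861540-144861898) ranked at 5.55% of ISL1_70 replicate 2 and 11.3% of ISL1_70 replicate 1, Wnt10b (chr15:98776825-98777801) at 9.77% and 10.6% of the same lists, Wnt2 (chr6:18030129-18031183) at 7.78% of ISL1_70 replicate 2 and 29.6% of ISL1_26 replicate 1, and Ihh (chr1:74951812-74952575) at 17.8% of ISL1_70 replicate 2 and 27.6% of ISL1_70 replicate 3. The H3K27me3 replicate 3 peaks there were enriched 257-fold, 272-fold, 295-fold and 436-fold, well above the median of 28.8 over the regions. Fgf4, Wnt10b and Wnt2 had no peak of H3K4me3 replicate 2 or H3K27ac, and Ihh had H3K4me3 replicate 2 and H3K27ac replicate 3.

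Other families of transcription factors gave 1 to 9 genes each. T-box genes with a region were Tbx1, T, Tbx3 and Tbx15. The Tbx1 region (chr16:18590281-18591110) covered the printed promoter, lay in H3K27me3 peaks of 14.5 and 15.6 kb, had a POU4F1 replicate 2 peak and had neither H3K4me3 replicate 2 nor H3K27ac; the Tbx3 region (chr5:119670102-119671066) had all 3 H3K27ac libraries. The 9 bHLH genes were Msc, Tcf21, Neurog1, Neurog3, Olig1, Sim2, Ptf1a, Bhlhe23 and Id3, of 44 with H3K27me3. Forkhead genes stood at 4 of 25, namely Foxc2, Foxd2, Foxh1 and Foxo1, which is close to the share of all H3K27me3 genes. Of the genes with H3K27me3 in lists of other tissues, 1 of 7 had a region for endothelium and blood, 1 of 9 for Schwann cells and neural crest (Tfap2b), 2 of 15 for mesenchyme, muscle and heart, and 4 of 16 for the otic epithelium (Otx1, Pax2, Hmx2 and Hmx3), beside the 16.0% of all such genes.

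Several regions gathered at a few genes. Hmx3 and Hmx2, neighbouring homeobox genes needed for the vestibular organs, shared a domain of 18.4 kb with 4 regions (chr7:131539932-131558361). The region over the Hmx2 start (chr7:131553637-131555247) ranked at 8.60% of ISL1_26 replicate 1 and 15.5% of ISL1_70 replicate 1 and had H3K4me3 replicate 2 and all 3 H3K27ac libraries. The region in Hmx3 (chr7:131543049-131544438), called in 3 lists, had H3K4me3 replicate 2 and H3K27ac replicates 2 and 3, while the region at chr7:131549879-131550609 had none of these.

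**Figure D5:**
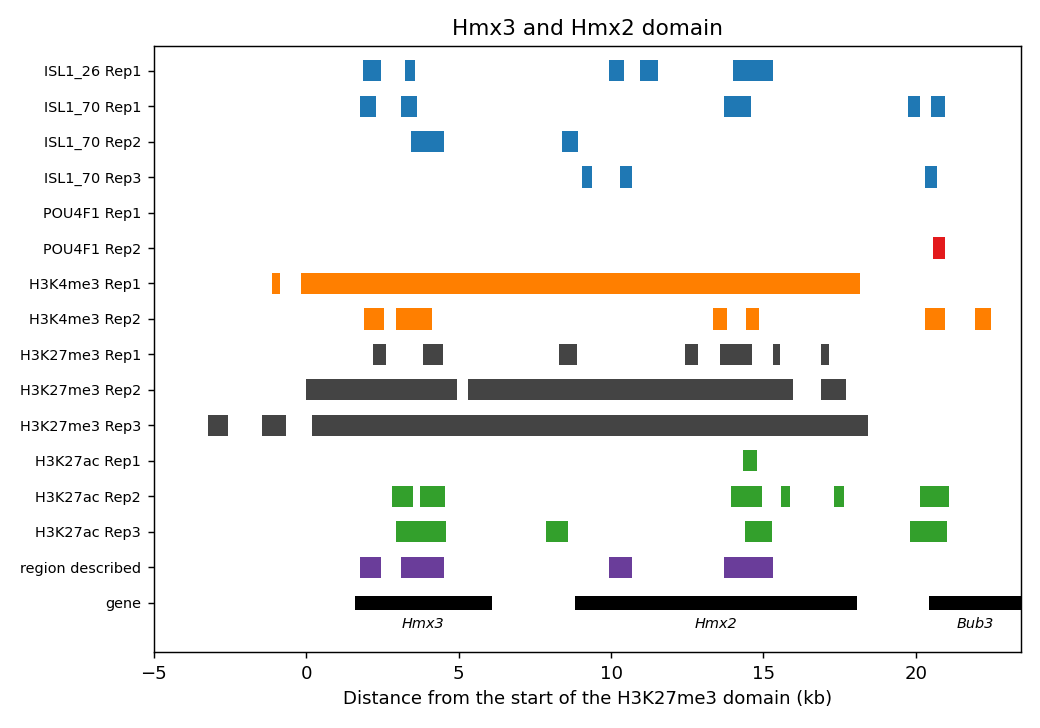
Peaks of the 14 libraries (rows, bars to scale) over the H3K27me3 domain of Hmx3 and Hmx2, by distance from the start of the domain in kb (x axis). Purple bars are the 4 ISL1 regions described and black bars are genes; H3K27ac peaks lie over 2 of the 4 regions.

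Bcor and Cdh22 had regions in several separate domains. Bcor, which encodes a subunit of a variant Polycomb repressive complex 1, had 5 regions, at distances from 0.123 kb downstream of its start (chrX:12159803-12160643) to 153 kb. All 5 were called by ISL1_26 replicate 1, with ranks from 2.61% to 38.1%, and all had H3K27ac of replicate 3 and 4 of them of replicate 2. Their H3K27me3 replicate 2 peaks were 1.81 to 5.55 kb long. Cdh22, a cadherin gene, had 4 regions, including 1 over its start in an 18.6 kb peak of H3K27me3 replicate 2. Ebf2, an early B cell factor gene expressed in neurons, and Nkx2-3, a homeobox gene of gut and spleen, had 3 each. The 3 regions at Nkx2-3 had no active mark, whereas all 3 at Ebf2 had H3K27ac of replicate 3 and 2 of them H3K4me3 replicate 2.

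Other clusters of regions lay over predicted genes or over ribosomal RNA and tRNA genes. The domain with most regions (chr6:47651615-47687019, 35.4 kb) held 7 regions among the predicted genes Gm40369, Gm40367, Gm40365, Gm36327, Gm40364 and Gm40363, and 4 further regions lay nearest to Gm40363. All 7 had a peak of H3K4me3 replicate 2, and 6 had one of POU4F1 replicate 2. The domain near Gas8 (chr8:123536479-123624877, 88.4 kb) held 6 regions and 48 annotated ribosomal RNA genes, and that near Fcgr3 (chr1:171063430-171086775) held 4 regions and 15 tRNA genes. The ISL1 peaks near Gas8 were weak, with ranks from 53.4% to 98.0% of their lists, and no H3K27ac peak overlapped them. How reads that match several copies were placed is not given in the sources used here, so the number of regions in these 3 domains is uncertain. Whether the predicted genes are copies of one another was not measured.

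The genes of the factors themselves had none of these regions. Only ISL1 regions of 2 or 3 lists without a POU4F1 replicate 1 peak were searched for. Regions of all 4 lists, or with that peak, are not covered by these counts. Isl1 (chr13:116298270-116309688) had no searched region within 10 kb, and the nearest of the 1011 regions was 1839 kb away. Pou4f1 (chr14:104461675-104468118) had 4 searched regions within 10 kb, but none of them overlapped both H3K27me3 lists. The nearest searched region that did lay 2733 kb away.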

How the data were processed

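Peak lists of 14 CUT&Tag libraries were used, 1 per library without pooling. The peak names within the files, per the file headers, show MACS2 run with a control, which is not named there. The submitters' processing notes also list the tools FastQC, Bowtie2 and SEACR and the build mm10; their versions and roles, like the options of MACS2, were not given in the sources used here. The deposited values of each peak are its fold enrichment, a ratio to the local background, its p-value and q-value as −log10, and its summit offset, all as the authors' caller gave them. They served only for ranks and filters inside a list, since depth is unknown and a deeper library gives more peaks and more overlaps. Every list ends near a −log10 q of 1.

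Chromosomes 1 to 19, X and Y were analysed, and an overlap of at least 1 bp counted. Shares were compared with Fisher's exact test (two-sided, scipy 1.17.1), adjusted by Benjamini-Hochberg over 7 libraries with a threshold of 0.05; positions were compared with Breslow-Day and Mantel-Haenszel tests (statsmodels 0.14.6). The tests were checked on simulated data. Intervals of shares are 95% Wilson intervals and cover counting error only. Genes, tRNA genes and rRNA genes came from RefSeq GRCm38.p6, which shares its primary chromosomes with mm10. Transcription starts were planned, but the promoter table covers 79.9% of the 21887 protein-coding genes, so either gene end was used. No genome sequence was used, so motifs were counted in promoters and not at summits. Where 2 starts of a gene were listed, 1 is printed.

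The regions and the gene lists were chosen with earlier results of these data known. Named genes are the 10 regions of 3 lists with the best mean ISL1 rank, the 8 genes with most regions nearest to them, up to 4 genes per list by that rank, the 5 domains with most regions, the 5 regions with most H3K27ac libraries, and Isl1 and Pou4f1; from these, examples are given in full. Names added beyond them list the members of a gene list without values. Alternatives were overlap within 100 bp to either side of the summits, 50% coverage, a −log10 q of at least 2, leaving out each library of the rule, no peak of either POU4F1 library, strata of width and of position and a 5 kb window. Regions without tRNA or rRNA genes and transcription starts in place of gene ends were added after seeing the data. A few single genes are not reported here.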

Additional observations from a re-analysis of the deposited data

Results flagged for a closer look

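The ISL1 list ISL1_70 replicate 2 stood apart from the other 3 ISL1 lists: the ratio of its share of regions inside H3K27me3 to its share of comparison regions was 1.73, while the others stood at 0.881 to 0.919. The lists chose the regions, so this is a description without a test. As each region has 2 or 3 lists, a higher share of 1 list also lowers the ratios of the others.

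For 3 libraries the direction at gene ends was opposite to the direction farther away, and the difference between the positions passed the Breslow-Day test. The odds ratios at gene ends were 0.908 for POU4F1 replicate 2, 0.310 for H3K4me3 replicate 2 and 0.337 for H3K27ac replicate 1, and farther away they were 2.35, 5.42 and 4.61. At gene ends the POU4F1 value did not itself differ from 1 beyond its interval (0.595 to 1.39). The sets farther away were not matched in distance to a gene end.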

How the results depend on the processing

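Of 115 values computed under alternatives, 109 kept their direction and their side of the threshold, or for the number of regions stayed within 1.5 times. With gene-end position as a stratum, the odds ratios of H3K4me3 replicate 2 and H3K27ac replicate 1 turned to 0.824 and 0.637. Their directions at gene ends and farther away were opposite, so these pooled values describe neither position. With at least 50% of a region covered, the odds ratio of H3K27ac replicate 1 was 1.11 (exact test, adjusted p = 0.611); the cause was not tested. Without ISL1_70 replicate 2, that of H3K27ac replicate 3 was 0.874 (exact test, adjusted p = 0.0838), and over all libraries left out in turn it ran from 0.457 to 0.874. The number of regions ran from 453 without ISL1_26 replicate 1 and 497 without ISL1_70 replicate 1 to 1501 without H3K27me3 replicate 2, as fewer lists give fewer regions of 2 lists and fewer criteria give more. The excess at gene ends ran from an odds ratio of 4.06 to 8.04 over its alternatives, and that of H3K27me3 replicate 1 from 3.49 to 10.0. For the library labelled H3K4me3 replicate 1 it ran from 229.7 without H3K27me3 replicate 2 to 23627 at 50% coverage. Without regions near tRNA or rRNA genes 1001 regions were left. No paired analysis was possible because the results come from overlaps of peak lists and no test treats libraries as replicates. Depth is unknown, so a missing peak does not show a missing mark.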

Other observations

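Counted after the clusters at tRNA and rRNA genes had been seen, 10 of the 1011 regions (0.989%) lay within 1 kb of an annotated tRNA or rRNA gene. Of 14859 comparison regions, 27 did so (0.182%, odds ratio 5.49, 95% interval 2.65 to 11.4, Fisher's exact test, adjusted p = 0.000113 over 3 such counts). For rRNA genes the counts were 6 and 1 (exact test, adjusted p = 1.31e-06) and for tRNA genes 4 and 26 (adjusted p = 0.121). Of the 10 regions, 8 were called by ISL1_70 replicate 2, 6 by ISL1_70 replicate 3 and 4 each by ISL1_26 replicate 1 and ISL1_70 replicate 1. All 10 had a peak of the library labelled H3K4me3 replicate 1, 7 of H3K27me3 replicate 1, 4 of H3K4me3 replicate 2 and 1 of H3K27ac replicate 1, and none of H3K27ac replicates 2 or 3. Regions in the same array of repeated copies are not independent of one another. The domain near Gas8 alone held 48 of the 63 annotated rRNA genes and 6 regions, so the rRNA count may rest largely on 1 locus. How many of the counted regions lay there is not given.

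By chromosome, the regions were most numerous on chromosome 2 (91) and chromosome 11 (85), beside 1218 and 990 comparison regions. Chromosome 2 also held the most comparison regions, and no share by chromosome was tested. There were 14 on chromosome 16 and none on Y, where 538 and 15 comparison regions lay.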
